A study of Homo sapiens with 4 samples.

Results

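miR-1273h and miR-1285 are human miRNAs whose hairpins come from transposable-element sequence, and both arms of each are described here across ERH knockdown and control cells. The 4 mature miRNAs (hsa-miR-1273h-5p, hsa-miR-1273h-3p, hsa-miR-1285-5p and hsa-miR-1285-3p) were picked by name, with their knockdown values in these libraries already known, out of 2366 human miRNAs that have a row in the count tables. Their difference between knockdown and control is therefore given as a description, with no test. The libraries came from K562, an established human chronic myeloid leukaemia line, carrying dCas9-KRAB, a cleavage-dead Cas9 joined to a transcriptional repressor, which silences the gene that its guide RNA addresses. In the ERH knockdown group, a doxycycline-inducible polyclonal line for each of 2 guide RNAs against ERH had received 0.05 µg/ml doxycycline for 5 days, and in the control group the same lines had received none, which gives 2 libraries per group. All 4 libraries thus share dCas9-KRAB and an ERH guide RNA, and an effect of doxycycline itself cannot be told apart from one of ERH silencing. ERH mRNA was not measured by this assay, so the knockdown was not checked.

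A miRNA is cut from a hairpin in its primary transcript by the nuclear Microprocessor (the nuclease DROSHA with DGCR8), then from the trimmed hairpin by Dicer, which leaves a duplex of a 5p and a 3p arm. One arm is usually kept in an Argonaute protein and the other is lost, and the bases just after the 5′ end of the kept arm, the seed, pair with target mRNAs. ERH is a small conserved protein that binds DGCR8, and the study asked how it bears on hairpins that Microprocessor handles poorly alone but better beside a good neighbour. Alu elements are primate-specific repeats, and where copies lie head to head, or parts of a copy pair with each other, the transcript can fold into a hairpin. The miR-1273 family, miR-1285 and miR-1303 are known as miRNAs annotated in Alu sequence (repeat masking of the loci was not analysed here), and the many Alu copies in the genome make the origin of their reads harder to fix than for a single-copy miRNA.

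The mature sequences below show what separates the 2 miRNAs and their best counted Alu-related relatives. They are RefSeq entries on GRCh38.p14, written 5′ to 3′ with the seed, bases 2 to 8, in capitals.
miR-1273h-3p: cUGCAGACucgaccucccaggc
miR-1285-3p: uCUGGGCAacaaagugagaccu
miR-1303: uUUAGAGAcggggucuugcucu
miR-1304-5p: uUUGAGGCuacagugagaugug
All 4 have 22 bases and no pair shares a seed. The longest run of bases that miR-1273h-3p shares with miR-1285-3p is 5, and the median over all 2369 other mature names is 4. miR-1285-3p shares a run of 7 bases with miR-1304-5p and 5 with miR-1303. The seed of miR-1273h-3p stood in no other of the 2370 mature names of the RefSeq table, and that of miR-1285-3p stood in 3 others (miR-3187-5p, miR-5189-5p and miR-6860), 0 of which passed the filter on low counts.

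miR-1273h has 1 hairpin and miR-1285 has 2. MIR1273H spans 116 bases at chr16:24203116-24203231 on the plus strand (GRCh38, GENCODE annotation) and lies in introns of PRKCB, a protein kinase C gene, in the same orientation; miR-1273h-3p is at chr16:24203186-24203207. MIR1285-1 spans 84 bases at chr7:92204015-92204098 on the minus strand, in introns of KRIT1, a gene mutated in a familial form of cerebral cavernous malformations, and of the overlapping AC000120.3 and AC000120.1, all in the same orientation. MIR1285-2 spans 88 bases at chr2:70252918-70253005 on the minus strand and overlaps no other annotated gene. The copies of miR-1285-3p at chr7:92204027-92204048 and chr2:70252933-70252954 are identical, so its reads cannot be split between the 2 loci.

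None of the 3 hairpins is clustered. The nearest other annotated miRNA hairpin lies 1822 kb from MIR1273H, 1279 kb from MIR1285-1 and 1149 kb from MIR1285-2, against a usual limit of 10 kb for a cluster. By predicted fold energy the 2 miR-1285 hairpins differ. RNAfold gave -57.8 kcal/mol for MIR1285-1, or -0.69 per base, and -30.0 kcal/mol for MIR1285-2, or -0.34 per base, while MIR1273H reached -76.8 kcal/mol, or -0.66 per base. The median of 1879 annotated hairpins was -0.45 per base. Thus 6.44% of hairpins had a lower energy per base than MIR1285-1 and 8.25% than MIR1273H, but 84.8% had a lower one than MIR1285-2. The energies are for the annotated ends, which differ in how much flank they hold.

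Aligned to all other annotated hairpins (blastn, E-value under 0.001), MIR1273H matched 4, namely MIR1273F, MIR7851, MIR3135A and MIR1254-1. Its match to MIR1273F held on both strands, with 100% identity over 21 bases in the same direction and 95.7% over 23 bases in the opposite one. MIR1285-1 matched MIR1285-2, MIR5096 and MIR5684. The 2 miR-1285 hairpins were identical over the 22 bases of the 3p arm, and also aligned to each other in opposite directions over 30 bases at 93.3% identity. An exact copy of miR-1285-3p also stood in exons of 2 genes that are not miRNA genes, in GPALPP1 in the sense direction and in AC138028.6 in the antisense one. miR-1273h-3p had 0 such genes. Of 413 tested miRNAs with a sequence, 314 had 0 and 6 had more than 2. Copies outside annotated transcripts were not analysed here, and how reads with several matches had been assigned is not given in the sources used here.

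The knockdown libraries held 2227374 and 2393565 miRNA reads with guide RNAs 1 and 2, and the control libraries held 1430434 and 2476700. Values below are reads or CPM, here reads brought to a common library total by TMM scaling, which sets the bulk of miRNAs equal between libraries. Of 464 miRNAs that passed the filter on low counts, 50.9% were called by edgeR's quasi-likelihood test at a Benjamini-Hochberg adjusted p under 0.05, with 119 higher after knockdown (25.6%) and 117 lower (25.2%). The erythroid miRNAs miR-451a and miR-144-3p, markers that fit the K562 label, had at least 36108 and 11527 reads in every library. The scaling moves this split. It was 273 higher and 41 lower with library size alone, and 186 and 8 with scaling to 2 spiked-in RNAs; over all tested miRNAs the median log2 fold change, 0.06 with TMM, lay 0.44 and 0.68 higher under them.

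All 4 miRNAs passed the filter, and the well counted ones were higher after ERH knockdown with both guide RNAs. miR-1285-3p stood highest, at 1.81-fold the control level, and the 2 arms of miR-1273h were 1.32-fold and 1.30-fold the control level. The weak arm miR-1285-5p had only 10 to 31 reads per library, and its groups overlapped. In bulk RNA, a change in the share of cells that make a miRNA and a change in its amount per cell cannot be told apart. Of the 4, 3 were among those called higher and 0 among those called lower, beside the backgrounds of 25.6% and 25.2%, a count that the choice of members had fixed. Since the members were chosen with this contrast known, whether a call held across settings is a description and lends it no support. The call of miR-1285-3p held in every fit of all 4 libraries, but those of miR-1273h did not (log2 fold changes in brackets). The call of miR-1273h-5p was lost with DESeq2 (0.35) and without control replicate 1 (0.32), knockdown replicate 2 (0.23) or control replicate 2 (0.47). That of miR-1273h-3p was lost with DESeq2 (0.33) and without knockdown replicate 2 (0.29) or control replicate 2 (0.38).

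**Figure D1:**
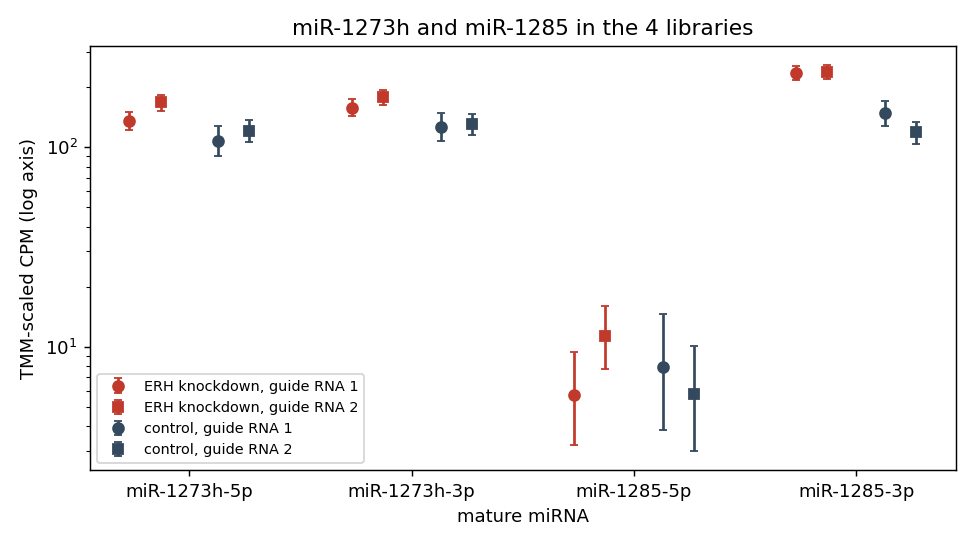
TMM-scaled CPM (log axis) of the 4 mature miRNAs in each library, with exact 95% intervals for counting error; red is ERH knockdown and dark blue control, circles are guide RNA 1 and squares guide RNA 2. Both knockdown libraries lie above both control libraries for miR-1273h-5p, miR-1273h-3p and miR-1285-3p, while those of miR-1285-5p overlap. Groups without overlap also occurred for a miRNA that was not called (miR-652-3p, log2 fold change 0.06). The share of all 464 tested miRNAs without overlap is not given here, so non-overlap does not set these arms apart.

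miR-1285-3p, the dominant arm of miR-1285, had 624 and 655 reads in knockdown libraries (guide RNAs 1 and 2), against 187 and 246 in controls. After scaling these were 237 and 239 CPM in knockdown libraries, against 148 and 119 CPM in controls. The knockdown libraries differed little from each other, the controls were farther apart, and the groups did not overlap. The log2 fold change was 0.86 ± 0.11 (SE of the edgeR fit, 2 libraries per group), with 66 of the 464 tested miRNAs higher. Within guide RNA 1 the log2 ratio was 0.68 (exact 95% interval for counting error 0.44 to 0.92), and within guide RNA 2 it was 1.01 (0.80 to 1.23). Its control mean of 134 ± 20.9 CPM (SD, n = 2) ranked 158th among the tested miRNAs.

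miR-1273h-3p had 416 and 487 reads in knockdown libraries, against 160 and 271 in controls. That is 158 and 178 CPM in knockdown libraries, against 127 and 131 CPM in controls, so the groups did not overlap but lay close. The log2 fold change was 0.38 ± 0.11 (SE). Within guide RNA 1 the log2 ratio was 0.32 (0.05 to 0.59) and within guide RNA 2 it was 0.44 (0.23 to 0.66).

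miR-1273h-5p, the opposite arm of the same hairpin, had 357 and 460 reads in knockdown libraries, against 136 and 251 in controls. In CPM it stood at 136 and 168 in knockdown libraries, against 108 and 121 in controls, again without overlap. Its log2 fold change was 0.40 ± 0.12 (SE), as large as that of the 3p arm within this error. Within guide RNA 1 the log2 ratio was 0.33 (0.04 to 0.63) and within guide RNA 2 it was 0.47 (0.25 to 0.70). With guide RNA 1 the lower bounds of both arms, 0.04 and 0.05, thus lay close to no change by counting error alone.

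Single libraries moved the size of these values. The log2 fold change of miR-1273h-5p was 0.23 without knockdown replicate 2 and 0.53 without knockdown replicate 1, and that of miR-1273h-3p was 0.29 and 0.45. miR-1285-3p stood at 0.66 without control replicate 2.

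miR-1285-5p, the minor arm, had 15 and 31 reads in knockdown libraries, against 10 and 12 in controls. In CPM that is 5.70 and 11.3 in knockdown libraries, against 7.93 and 5.79 in controls, and the groups overlapped. The log2 fold change was 0.37 ± 0.41 (SE), less than its own error. The log2 ratio was -0.48 (-1.73 to 0.84) within guide RNA 1 and 0.97 (-0.03 to 2.06) within guide RNA 2. Both intervals hold 0, but scaling changes this for guide RNA 2, whose interval was 0.42 to 2.51 with library size and 0.65 to 2.75 with spike-ins. Without knockdown replicate 2 the log2 fold change was -0.21.

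Scaling changes the size of these values but not the direction of the well counted arms. With library size alone, the log2 fold changes were 1.30 for miR-1285-3p, 0.84 for miR-1273h-5p and 0.82 for miR-1273h-3p. With spike-ins they were 1.55, 1.10 and 1.08. Per 1000 spike-in reads, miR-1285-3p had 12.1 ± 2.22 reads after knockdown and 4.14 ± 0.13 in controls (SD, n = 2 each), a ratio of 2.92. On the same scale miR-1273h-3p had 8.60 ± 2.22 reads after knockdown and 4.06 ± 0.85 in controls, a ratio of 2.12. The shift between scalings is the one seen over all tested miRNAs, so it says nothing particular about these.

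**Figure D2:**
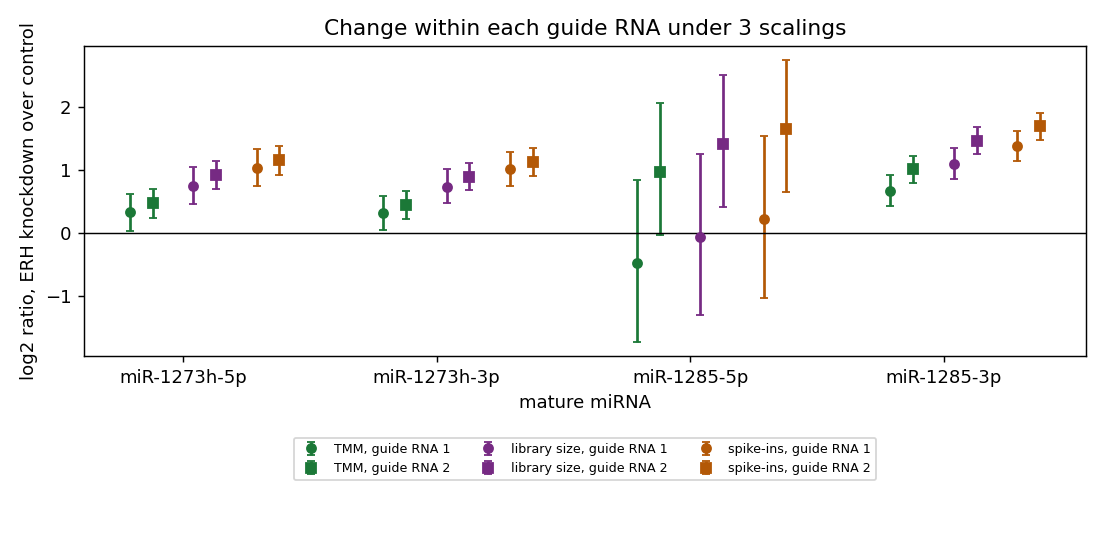
Log2 ratio of ERH knockdown over control within each guide RNA (circles guide RNA 1, squares guide RNA 2) under TMM, library size and spike-in scaling, with exact 95% intervals for counting error. miR-1285-3p and both arms of miR-1273h lie above 0 in each case, and miR-1285-5p spans 0 with guide RNA 1 under all 3 scalings.

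Counts of the 2 arms within a library need no scaling between libraries. The hairpin of miR-1273h gave nearly as many reads of one arm as of the other. Its 3p arm made up 53.8% and 51.4% of the reads of both arms in knockdown libraries, against 54.1% and 51.9% in controls. The exact 95% intervals ran from 48.2% to 57.4% across the knockdown libraries and from 47.5% to 59.8% across the controls. The 3p count per 5p count averaged 1.11 ± 0.08 in knockdown libraries and 1.13 ± 0.07 in control libraries (SD, n = 2 each). The log2 ratio of the arms changed by -0.02, -0.01 within guide RNA 1 and -0.03 within guide RNA 2, which is less than the spread between libraries of a group. Of 109 hairpins whose 2 arms were both tested, 102 had a larger shift of either sign, and the median size was 0.23. In controls 3 of these hairpins had arms closer to equal than miR-1273h did. Arms are ligated and amplified with different ease, so an equal count is not an equal number of molecules.

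miR-1285 was far from balanced. Its 3p arm held 97.7% (96.2% to 98.7%) and 95.5% (93.6% to 96.9%) of the reads in knockdown libraries, against 94.9% (90.9% to 97.5%) and 95.3% (92.0% to 97.6%) in controls. The knockdown library of guide RNA 1 was the highest and the other 3 lay together. The count of 3p reads per 5p read was 41.6 and 21.1 in knockdown libraries, against 18.7 and 20.5 in controls. The log2 arm ratio changed by 0.63 on average, made up of 1.17 within guide RNA 1 and 0.08 within guide RNA 2. Of the 109 hairpins, 14 had a larger average shift, but this one rests on 1 library: without knockdown replicate 1 it was 0.15. Only 10 to 31 reads of the 5p arm per library stand behind it.

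**Figure D3:**
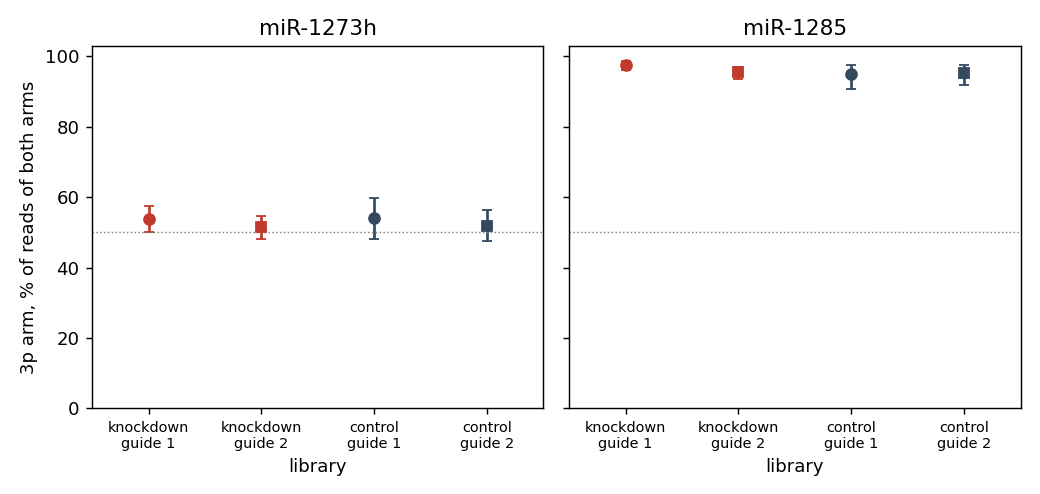
Share of the 3p arm among the reads of both arms (percent, vertical axis) in each library for miR-1273h (left) and miR-1285 (right), with exact 95% binomial intervals; red is ERH knockdown, dark blue control, and the dotted line marks equal arms. miR-1273h stays between 51.4% and 54.1%, and miR-1285 between 94.9% and 97.7%.

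Set against each other within a library, the 3p arms of the 2 miRNAs restate their log2 fold changes of 0.86 and 0.38. No counting interval and no background over other pairs of miRNAs was computed for this ratio, so its size is given as a description. miR-1285-3p had 1.5 and 1.34 reads per read of miR-1273h-3p in knockdown libraries, against 1.17 and 0.91 in controls. The means were 1.42 ± 0.11 after knockdown and 1.04 ± 0.18 in controls (SD, n = 2 each), with no overlap. An exact permutation test on libraries could not fall under 0.05 with groups this small, and none was run on members chosen with these values known.

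The other Alu-related miRNAs were mostly thinly counted. Of 20 names on a list from general knowledge, 18 had a row, 8 of these had 0 reads in every library, and 3 passed the filter. Among those 3, 2 rose and 0 fell, beside 25.6% higher and 25.2% lower over all tested, and their median log2 fold change was 0.69 against 0.06 over all 464. The list was drawn up with earlier results of these data known and 3 miRNAs are few, so nothing is read from this about the list. The calls and adjusted p-values of its miRNAs come from the same contrast and are likewise given as a description. miR-1303 rose by 0.84 ± 0.15 (SE; adjusted p = 0.00027, edgeR with Benjamini-Hochberg adjustment), with 305 and 263 reads in knockdown libraries, against 85 and 110 in controls. In CPM it had 116 and 96.0 in knockdown libraries, against 67.4 and 53.1 in controls, and it was called under every setting tried.

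The ratio of miR-1285-3p to miR-1303 was alike in its means, 2.27 ± 0.31 after knockdown and 2.22 ± 0.03 in controls (SD, n = 2 each). It varied more between the knockdown libraries than between the controls. There were 2.05 and 2.49 reads of miR-1285-3p per read of miR-1303 in knockdown libraries, against 2.20 and 2.24 in controls, so the groups overlapped.

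miR-1304-5p rose by 0.69 ± 0.25 (SE; adjusted p = 0.032, edgeR), with 52 and 76 reads in knockdown libraries, against 18 and 31 in controls. It was not called by DESeq2 (0.65), without knockdown replicate 2 (0.42), without control replicate 1 (0.66) or without control replicate 2 (0.71). miR-5585-3p had 10 and 7 reads in knockdown libraries, against 2 and 11 in controls, and stood at -0.29 ± 0.53 (SE; 0.15 with library size, 0.36 with spike-ins and 0.95 without control replicate 2). An exact copy of miR-5585-3p stood in exons of 10 genes that are not miRNA genes, 4 in the sense direction and 6 in the antisense one.

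Within the miR-1273 family, only miR-1273h was well counted. miR-1273c had 7 and 15 reads in knockdown libraries, against 2 and 3 in controls, and miR-1273d had 6 and 4 in knockdown libraries, against 3 and 5 in controls. miR-1273g-3p had 4 reads in all. miR-1273a, miR-1273e, miR-1273f and miR-1273g-5p had 0 in every library, which allows up to 1.21 to 2.10 CPM without TMM scaling. Of the hairpins aligning to MIR1273H, miR-7851-3p rose by 1.05 ± 0.38 (SE; adjusted p = 0.032, edgeR), with 24 and 23 reads in knockdown libraries, against 6 and 8 in controls. That call was lost with DESeq2 (0.99), with no filter (1.06) and without each library in turn (0.85 to 1.16). miR-1254 stood at 0.32 ± 0.27, not called; it passed under spike-ins (0.98) and under library size (0.76), and stood at -0.04 without control replicate 2.

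A second list, also from general knowledge, held miRNAs ascribed to repeats older than Alu, and the repeat class of each hairpin was not analysed here. Of 26 names 23 had a row and 14 passed the filter; 3 rose and 4 fell, shares near the backgrounds of 25.6% and 25.2%, and their median log2 fold change was 0.06, close to that over all tested. The 5 most abundant were miR-652-3p at 0.06 ± 0.05, miR-340-5p at -0.18 ± 0.07, miR-151a-3p at -0.22 ± 0.08, miR-378a-5p at -0.58 ± 0.07 and miR-361-5p at -0.25 ± 0.07 (SE). None of the 3 that rose is among these 5. Over the list the log2 fold changes ran from -0.58 to 1.24, so the 5 do not stand for it. The last 4 of the 5 fell by the edgeR call. With no filter miR-378a-5p alone of them was called, but with library size it stood at -0.14 and was not. miR-340-5p lost its call with guide RNA as a block (-0.18), with the filter of at least 10 CPM (-0.14) and without knockdown replicate 1 (-0.21), knockdown replicate 2 (-0.16) or control replicate 1 (-0.14). miR-151a-3p lost its call with that filter (-0.18) and without knockdown replicate 1 (-0.17), knockdown replicate 2 (-0.29) or control replicate 2 (-0.15), and miR-361-5p without either knockdown replicate (-0.25 and -0.27). The direction also depends on scaling: with spike-in scaling all 4 were positive and none was called, and with library size miR-340-5p (0.26) and miR-151a-3p (0.22) were called higher, as was miR-652-3p (0.50), while miR-361-5p (0.19) was not called. A test of the difference between these lists was not made.

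**Figure D4:**
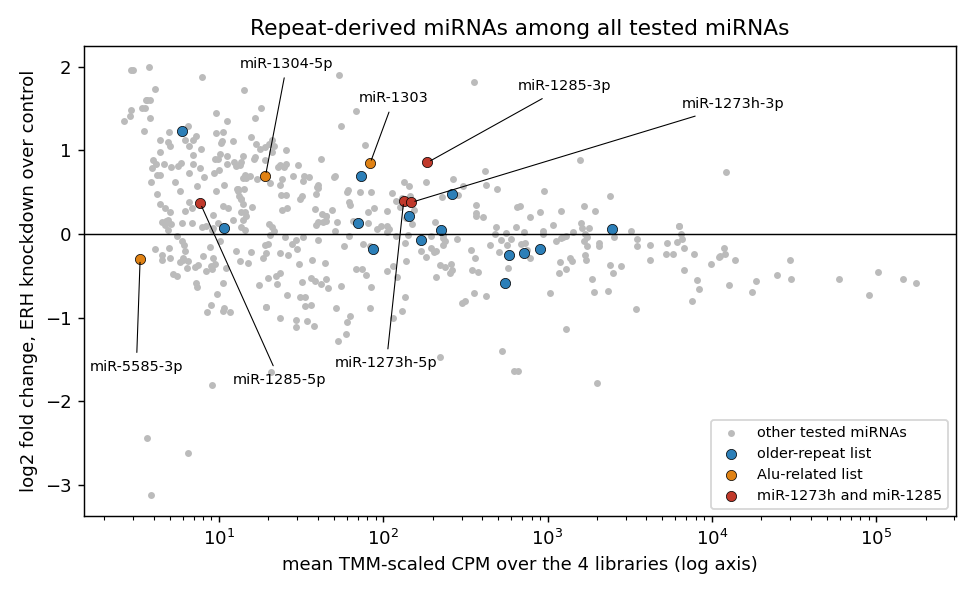
Log2 fold change of ERH knockdown over control against mean TMM-scaled CPM over the 4 libraries (log axis) for all 464 tested miRNAs. miR-1285-3p (0.86) and miR-1303 (0.84) lie at nearly one height, the 2 arms of miR-1273h (0.40 and 0.38) lie side by side, and the older-repeat list scatters around 0.

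The miRNAs whose pattern was nearest to each arm were found by the Euclidean distance of log2 CPM, centred over the 4 libraries, among all 464 tested. For miR-1273h-5p these were miR-330-5p (distance 0.13), its own opposite arm (0.13) and miR-26a-1-3p (0.14). For miR-1273h-3p they were miR-941 (0.05), miR-330-5p (0.10) and miR-579-3p (0.10), with the opposite arm 7th. miR-1285-3p was nearest to miR-512-3p (0.08), miR-519e-5p (0.09) and miR-7851-3p (0.11), and miR-1285-5p to miR-24-2-5p (0.16), miR-548j-3p (0.23) and miR-4761-5p (0.25). The 2 arms of miR-1285 were 0.87 apart, and the 5p arm was only the 222nd nearest to the 3p arm. Only 4 libraries stand behind these distances, and several of the nearest miRNAs have few reads.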

How the data were processed

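The authors deposited raw read counts per mature miRNA, 1 table without a header per library, from gel-purified small RNA of TRIzol extracts, per the labels. Trimming, alignment, miRNA release and genome build: not given in the sources used here. Each table has 2368 rows, and 2 spike-in rows were kept out of library sizes. The members and lists (the latter from general knowledge) were chosen with earlier results of these data known. Named miRNAs are the members, the 3 nearest patterns of each, the tested Alu-related miRNAs and the 5 most abundant older-repeat ones; the thinly counted miR-1273 relatives and miR-1254 were named after their values were seen.

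Counts were filtered with filterByExpr (minimum count 10, minimum total 15), scaled with TMM and fitted with edgeR 4.0.16 in R 4.3.3 without a block. The fit was also run on simulated counts, but the outcome is not given here, so it is no evidence for leaving out the block. Each guide RNA and condition has 1 culture, so a p-value reflects only how these libraries vary. Libraries with the same replicate number share a guide RNA and its line, which pairs them; the deviations of the paired libraries had a correlation of -0.11. Libraries of 1 group were not duplicates (chi-square over its degrees of freedom 4.72 in knockdown and 10.7 in control). Ratios within a guide RNA have exact conditional binomial intervals, and arm shares have Clopper-Pearson intervals, both at 95% and for counting error only, since the labels name no molecular identifiers. Arm log2 ratios used a pseudocount of 0.5 reads, and the limit for a count of 0 is 3 reads. Hairpins of GENCODE 29 were folded with RNAfold 2.7.2 and aligned with blastn 2.17.0 (word size 7). Alternatives were a guide RNA block, DESeq2 1.42.0, RLE, library size, spike-ins, other filters and pseudocounts, and leaving out each library.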

Additional observations from a re-analysis of the deposited data

Results flagged for a closer look

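The log2 ratio of miR-1285-5p was -0.48 within guide RNA 1 and 0.97 within guide RNA 2, and that of miR-5585-3p was 1.26 within guide RNA 1 and -1.05 within guide RNA 2. These TMM-scaled values have opposite signs in the lines of the 2 guide RNAs. All 4 counting intervals hold 0, and with spike-ins miR-1285-5p was positive in both lines (0.23 and 1.65). The difference between the lines was not tested, and between 2 and 31 reads per library stand behind these values.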

How the results depend on the processing

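With guide RNA as a replicate block the count of called miRNAs was 230, against 236 without it, and the log2 fold changes were 0.41 for miR-1273h-5p, 0.39 for miR-1273h-3p, 0.42 for miR-1285-5p and 0.85 for miR-1285-3p; among the miRNAs of the 2 repeat lists that the report names with a call, miR-340-5p was the one to lose it. DESeq2 called 150 miRNAs (48 higher, 102 lower), and leaving out 1 library at a time called 117 to 195, with 117 without knockdown replicate 1 and 140 without control replicate 2; the fall in number comes with fewer libraries. Library size alone moved miR-1273h-5p to 0.84, miR-1273h-3p to 0.82 and miR-1285-3p to 1.30, and spike-ins moved miR-1273h-5p to 1.10, miR-1273h-3p to 1.08, miR-1285-5p to 1.05 and miR-1285-3p to 1.55, by the change of scale. Leaving out each library gave 0.23 to 0.53 for miR-1273h-5p, 0.29 to 0.45 for miR-1273h-3p, 0.66 to 0.997 for miR-1285-3p and -0.21 to 0.76 for miR-1285-5p, where the negative value is without knockdown replicate 2. The arm log2 ratio then changed by -0.090 to 0.048 for miR-1273h, being 0.048 without knockdown replicate 2 and 0.041 without control replicate 1, and by 0.15 to 1.10 for miR-1285. miR-1285-5p did not reach a mean of 10 CPM, so that filter gave it no value. Depth limits the minor arm of miR-1285, with 10 to 31 reads per library.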
